A study of Mus musculus with 24 samples.

Results

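Axon guidance ligands and receptors were followed in 2 kinds of mouse cell, P19 cells and embryonic fibroblasts, after a myogenic or a neurogenic transcription factor was added. The genes were chosen by symbol, as measured genes named Sema, Plxn, Nrp, Efn, Eph, Slit, Robo, Ntn, Unc5 or Dcc in the families that carry guidance signals. Of the 18193 genes on the array, 67 were taken, which is not every gene of these families. They comprised 20 semaphorins, 8 plexins, 2 neuropilins, 8 ephrins, 13 Eph receptors, 3 slits, 4 robos, 4 netrins, and Dcc with 4 Unc5 receptors, which form a family of 5. The rule sets no threshold on any value, but the families were picked with earlier results of these data known. Where a gene had several probe sets the brightest on average was taken.

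RNA was hybridised to 24 Affymetrix mouse arrays in 8 groups of 3, each array holding 1 sample. P19 is a line of mouse embryonal carcinoma cells that can be driven towards neurons or muscle. The embryonic fibroblasts (MEFs) came from mice lacking both Myod and Myf5, so every MEF group, controls included, carries that deletion. Lentivirus delivered MyoD, the myogenic bHLH factor, or NeuroD2, a neurogenic bHLH factor, in medium with 8 µg/ml polybrene, with a change of medium after 24 hours. The groups were P19 cells with MyoD and their controls (batch 1), MEFs with MyoD and their controls (batch 1), P19 cells with NeuroD2 and their controls (batch 3), and MEFs labelled NeuroD2 and their controls (batch 2). All controls were untransduced cells of the same batch, so the effect of the virus itself and that of the factor cannot be told apart. P19 cells with either factor were collected at 72 hours. MEFs with MyoD were moved at 48 hours to a differentiation medium of low horse serum with insulin and transferrin and harvested 36 to 40 hours later. No harvest time was found for MEFs labelled NeuroD2 or for any untransduced controls. Whether controls and transduced cells were collected at the same time is therefore not known. One label calls all transduced cells, those with MyoD included, neuronally differentiated. The labels do not say whether the 3 samples of a group were separate cultures, so p-values measure only the spread between these arrays.

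Semaphorins, ephrins, slits and netrins are cues that steer growing axons, migrating cells and vessels, by attraction or by repulsion. Secreted class 3 semaphorins bind neuropilins, which signal through plexins, while most membrane semaphorins bind plexins directly. Ephrins are membrane ligands of the Eph receptor tyrosine kinases, slits are secreted repellents read by robo receptors, and netrins attract through Dcc and repel through Unc5 receptors.

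The identity of the cells was checked with marker genes. Myod1 signal was higher in P19 cells with MyoD (9.66 ± 0.08 log2 units) than in their controls (5.72 ± 0.29, SD, n = 3 each), and in MEFs with MyoD (12.73 ± 0.11) than in their controls (7.18 ± 0.04). Of 3 Neurod2 probe sets, 1 rose in P19 cells with NeuroD2, by 1.70 log2 units (limma, adjusted p = 1.85e-06). In MEFs labelled NeuroD2 the 3 differed by -0.06, 0.21 and -0.12 (lowest adjusted p = 0.679), none past the threshold. Those cells are therefore called MEFs labelled NeuroD2 throughout. All 15 fibroblast markers were higher and 12 of 13 pluripotency markers lower in MEF controls than in P19 controls of batch 1. Of 18 muscle markers, 17 rose in MEFs with MyoD and 12 in P19 cells with MyoD. Of 18 neuron markers, 17 rose in P19 cells with NeuroD2, against 3 that rose and 1 that fell in MEFs labelled NeuroD2. P19 control replicate 2 of batch 1 stood apart from the other 23 arrays. The lower and upper quartiles of its signals were 4.79 and 7.63, against 4.47 to 4.58 and 8.23 to 8.39 elsewhere, and its mean correlation with its own group was 0.919. Because the fit pools the spread over all groups, that array also widens the errors of comparisons it does not belong to, and counts are given with and without it.

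With all arrays, 3 guidance genes were called in P19 cells with MyoD. The receptor Ephb1 and its relative Ephb3 rose, and the semaphorin co-receptor Nrp2 fell. These 3 genes were 4.48% of the 67, against 2.71% of all 18193 genes called at an adjusted p under 0.05 in limma, with 2 higher (all genes 2.03%) and 1 lower (0.676%). Without the outlying control array, 1 gene was higher (all genes, 2.09%) and 4 were lower (1.85%), 7.46% of the guidance genes against 3.95% of all genes. Ephb3 then missed the threshold (log2 difference 0.44, adjusted p = 0.0592), while Sema3e (-1.38), Sema3d (-0.90) and Epha2 (-1.20) passed it. With limma fitted to the arrays of that comparison alone, none of the 3 passed the threshold (Ephb1, adjusted p = 0.573). The count depended on single control arrays, with 11 higher and 12 lower without control replicate 1 and 12 higher and 12 lower without replicate 3. Both of those fits keep the outlying replicate 2 among fewer controls, so it weighs more in them. The untransduced P19 cells of batch 3, taken as the controls, gave 5 higher and 13 lower. For the fits without replicate 1, without replicate 3 and against batch 3, the share of all genes called was not counted. Muscle markers summed to 15416 to 15706 in P19 cells with MyoD, against 2997 to 3432 in their controls, and their part in these changes was not tested.

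In MEFs with MyoD, 30 guidance genes changed, 11 upwards and 19 downwards. This was 44.8% of the 67, against 25.3% of all genes, with 10.8% of all genes higher and 14.5% lower. The falls included both neuropilins, 5 Eph receptors, 3 ephrins, 4 semaphorins, 2 slits, and the netrin Ntn1, and the rises included 5 semaphorins and 3 plexins. In size, 18 of these changes were at least 2-fold, a share not counted over all genes. Without the outlying array the counts were 12 higher and 19 lower, and the share of all genes called was 40.6%, so that the guidance genes (46.3%) lay closer to it. The labels record the differentiation medium for MEFs with MyoD alone, so the factor and the medium cannot be told apart. In the same cultures 12 of 15 fibroblast markers fell and 1 rose, with a summed linear signal of 45071 to 50239 in MEFs with MyoD, against 118885 to 129954 in their controls. The 18 muscle markers summed to 152724 to 157962, against 636 to 681, and among 10 glial markers 2 rose (Erbb3, 5.89, and Cnp, 1.67) and 1 fell, with sums of 4328 to 4769, against 1035 to 1082. The part of these lists in the guidance genes' changes was not tested. Here and in all later comparisons of these whole cultures, fewer cells of a type and less RNA per cell cannot be told apart.

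NeuroD2 in P19 cells changed 19 guidance genes, 16 upwards and 3 downwards. They made up 28.4% of the 67, against 8.34% of all genes, and 23.9% of them rose, against 5.1% of all genes. Those that rose included both neuropilins, 3 Eph receptors, 5 semaphorins, Robo1, Robo2, Unc5c and Ntn1. The plexin Plxnb2, the ephrin Efna1 and the semaphorin Sema3b fell (all genes lower, 3.24%). Without the outlying batch 1 array, 25 were higher and 12 lower, 55.2% of the guidance genes against 22.1% of all genes. In these cells 17 of 18 neuron markers rose, with a summed linear signal of 21476 to 32889, against 6877 to 7820 in their controls, and 1 of 13 pluripotency markers fell, with sums of 34736 to 38022, against 42095 to 43945. Among 10 glial markers 3 rose (Olig2, 3.47, Olig1, 1.34, and Mbp, 1.17) and 2 fell (Erbb3, -1.31, and Foxd3, -0.86), with sums of 1211 to 1669, against 968 to 1325. Among 15 fibroblast markers 1 rose (Pdgfrb, 1.04) and 2 fell (Dcn, -2.89, and Thy1, -1.16), with sums of 7579 to 8087, against 6120 to 7976. The part of these lists in the guidance genes' changes was not tested. The median difference over all 67 genes was 0.19 log2 units, against -0.05 over all genes.

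In MEFs labelled NeuroD2, 25 guidance genes changed, 15 upwards and 10 downwards, although no Neurod2 probe set rose there. They were 37.3% of the 67, against 12.3% of all genes, with 6.41% of all genes higher and 5.94% lower. The largest changes were in Epha5, which was 10.7-fold higher, and Sema3e, which was 10.6-fold higher. Of the 25, 17 were at least 2-fold, a share not counted over all genes. The outlying P19 array is not part of this comparison, but without it the pooled error shrank and 20 genes were higher and 13 lower, 49.3% against 27.1% of all genes. The 18 neuron markers summed to 2053 to 2117 in MEFs labelled NeuroD2, against 1115 to 1266 in their controls, with 3 higher and 1 lower. The 15 fibroblast markers summed to 139721 to 143971, against 143461 to 148178 in controls, with 2 higher and 4 lower. Of 12 endothelial markers 1 rose (Ecscr, 4.09) and 1 fell, and their sum was 1137 to 1254, against 525 to 612 in controls. Of 10 glial markers 1 fell (Mbp, -1.75), with sums of 753 to 822, against 981 to 1061 in controls. The part of these lists was not tested. In the heat map of all 67 genes the rows of the Eph receptors, semaphorins and neuropilins hold most of the strong colours, and the column of P19 cells with MyoD is the palest of the 4.

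**Figure D1:**
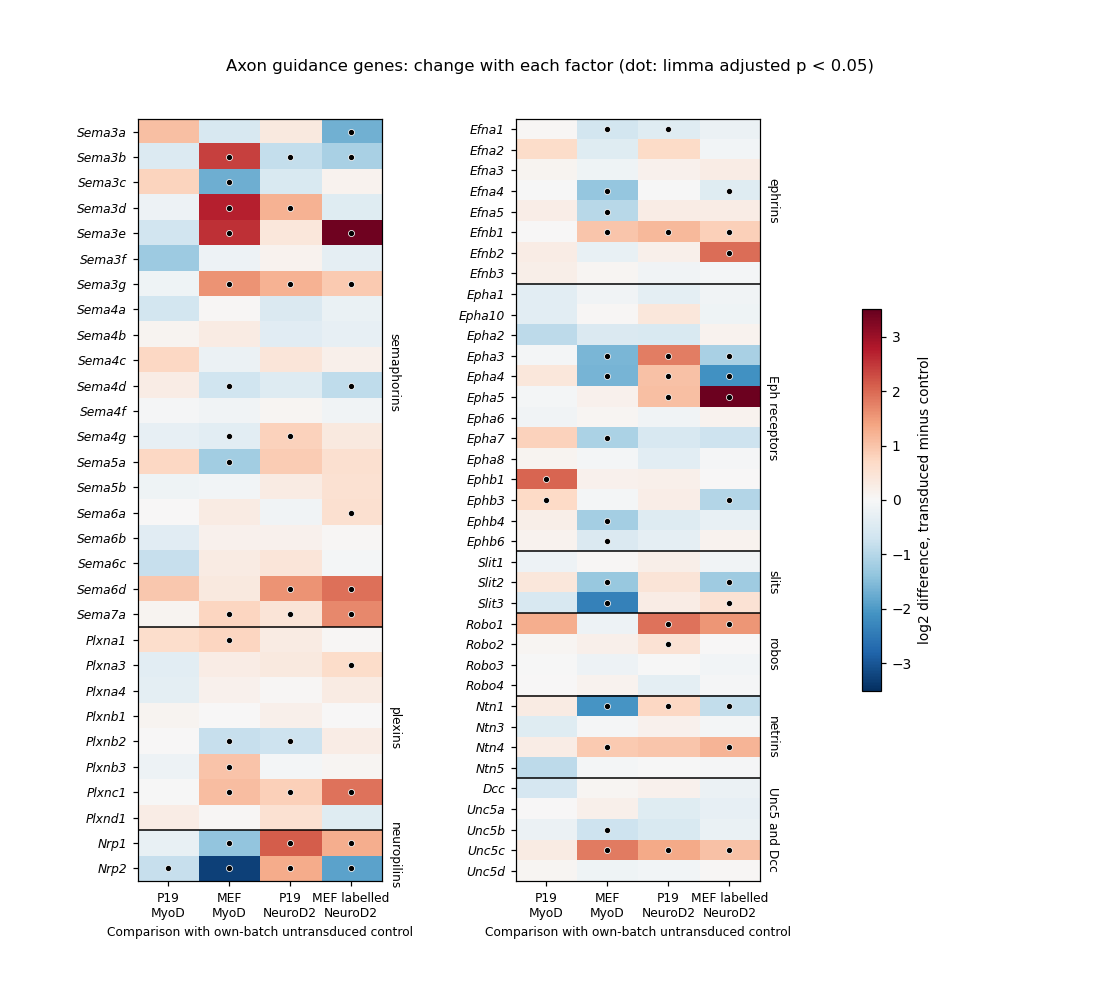
Differences in log2 signal between transduced cells and untransduced controls of the same batch for the 67 guidance genes, grouped by family, in the 4 comparisons; red is higher and blue lower in the transduced cells, and a dot marks an adjusted p under 0.05 in limma. Dots number 3 in P19 cells with MyoD, 30 in MEFs with MyoD, 19 in P19 cells with NeuroD2 and 25 in MEFs labelled NeuroD2.

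**Figure D2:**
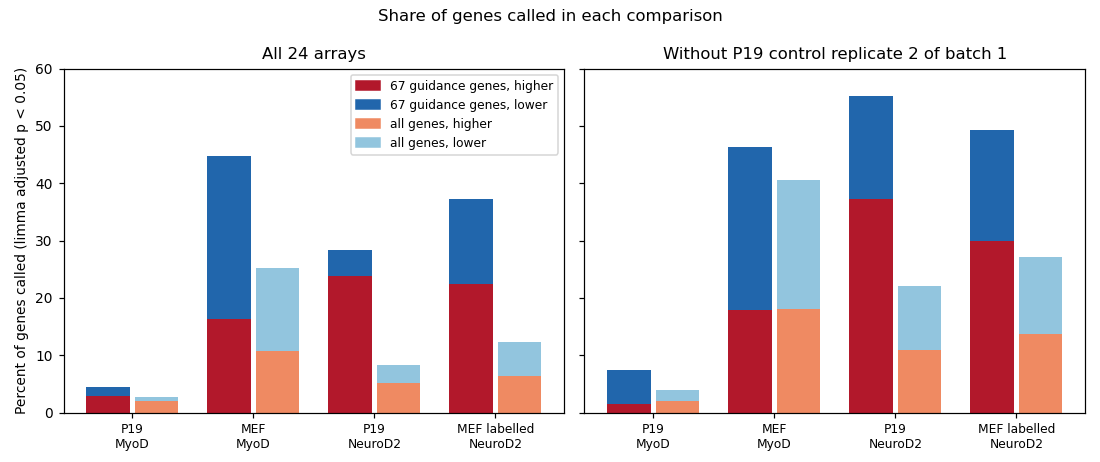
Percent of genes called higher or lower (adjusted p under 0.05) among the 67 guidance genes and among all 18193 genes in each comparison, with all 24 arrays on the left and without P19 control replicate 2 of batch 1 on the right. With all arrays the guidance genes reach 44.8% in MEFs with MyoD, against 25.3% of all genes, and 28.4% in P19 cells with NeuroD2, against 8.34%.

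Across these 4 comparisons, 27 of the 67 genes were called in none, 15 in 1, 14 in 2, 10 in 3 and 1, Nrp2, in all 4. The 27 were Dcc, Unc5a, Unc5d, Ntn3, Ntn5, Slit1, Robo3, Robo4, Efna2, Efna3, Efnb3, Epha1, Epha2, Epha6, Epha8, Epha10, Plxna4, Plxnb1, Plxnd1, Sema3f, Sema4a, Sema4b, Sema4c, Sema4f, Sema5b, Sema6b and Sema6c. Without the outlying array, 15 were called in none. Neither these counts nor the directions of the shared calls that follow were counted over all genes. Of the 30 genes called in MEFs with MyoD and the 25 called in MEFs labelled NeuroD2, 17 were shared (56.7% and 68% of each list), 14 of them moving the same way, where sharing over all genes was 28% and 57.4%. Without the outlying array 23 were shared, 16 the same way and 7 opposite. They were 74.2% and 69.7% of each list, against 44% and 65.9% over all genes, so the second share lay close to that of all genes. P19 cells and MEFs labelled NeuroD2 shared 14 called genes, 73.7% of the P19 list and 56% of the MEF list, with 10 the same way and 4 opposite (all genes, 27.6% and 18.6%). Without the outlying array they shared 24, with 17 the same way and 7 opposite (64.9% and 72.7%, against 40.4% and 33% over all genes).

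Efnb1, Plxnc1, Sema3g, Sema7a and Unc5c rose in MEFs with MyoD, in P19 cells with NeuroD2 and in MEFs labelled NeuroD2. They were the only members that rose in 3 comparisons, and how many of all genes rose in 3 was not counted. The same 5 did so without the outlying array, together with Ntn4. None of them passed the threshold in P19 cells with MyoD, with differences between -0.14 (Sema3g) and 0.28 (Unc5c). Sema7a is a membrane-anchored semaphorin and Plxnc1 its plexin receptor, Efnb1 is a transmembrane ephrin, Sema3g is a secreted semaphorin, and Unc5c is a netrin receptor that mediates repulsion.

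Because these 5 genes moved together, the 250 bases before the annotated start of each were taken from RefSeq (build GRCm38.p6) and searched on both strands for CAGCTG, an E-box core known to be bound by both kinds of factor, and for CAGATG, a core known to be preferred by NeuroD factors, which reads as CATCTG on the opposite strand. Each is written from 5′ to 3′ on the strand of the gene, with CAGCTG in capitals. The windows are chrX:99135811-99136060 (plus strand), chr10:94944846-94945095 (minus strand), chr14:31217623-31217872 (plus), chr9:57939862-57940111 (plus) and chr3:141465314-141465563 (plus), in the order printed.
Efnb1: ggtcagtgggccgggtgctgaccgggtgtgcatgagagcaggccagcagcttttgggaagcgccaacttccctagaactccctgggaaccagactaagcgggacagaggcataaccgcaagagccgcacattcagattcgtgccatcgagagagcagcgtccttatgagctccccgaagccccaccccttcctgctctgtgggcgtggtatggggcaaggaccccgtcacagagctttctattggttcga
Plxnc1: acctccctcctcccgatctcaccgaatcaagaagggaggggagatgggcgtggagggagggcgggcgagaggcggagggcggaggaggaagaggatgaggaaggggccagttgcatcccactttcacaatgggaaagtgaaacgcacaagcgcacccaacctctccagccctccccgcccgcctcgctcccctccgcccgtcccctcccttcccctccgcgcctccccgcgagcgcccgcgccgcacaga
Sema3g: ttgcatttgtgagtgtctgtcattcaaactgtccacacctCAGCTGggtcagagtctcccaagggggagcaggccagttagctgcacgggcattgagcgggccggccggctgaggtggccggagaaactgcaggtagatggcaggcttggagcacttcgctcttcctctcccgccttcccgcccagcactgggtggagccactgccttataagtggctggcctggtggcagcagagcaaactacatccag
Sema7a: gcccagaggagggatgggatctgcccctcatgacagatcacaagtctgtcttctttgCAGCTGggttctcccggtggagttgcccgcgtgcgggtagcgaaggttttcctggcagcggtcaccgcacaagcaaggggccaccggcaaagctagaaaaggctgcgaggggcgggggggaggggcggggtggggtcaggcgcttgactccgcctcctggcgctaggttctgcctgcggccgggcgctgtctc
Unc5c: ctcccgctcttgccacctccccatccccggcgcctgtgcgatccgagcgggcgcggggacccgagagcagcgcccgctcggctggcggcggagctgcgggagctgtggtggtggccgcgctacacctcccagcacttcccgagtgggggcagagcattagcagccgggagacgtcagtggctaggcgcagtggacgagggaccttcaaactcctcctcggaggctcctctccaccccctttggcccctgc

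CAGCTG stood 210 bases before the start of Sema3g and 193 bases before that of Sema7a, and the other 3 windows held none. CAGATG was in 0 of these 5 windows. RefSeq gave a promoter for 57 of the 67 genes, in 73 windows, of which 16.4% held CAGCTG, against 13.0% of 32851 windows of all genes. CAGATG was in 6.85% of the guidance windows, against 14.4% of all. The median GC content was 64.4% in the guidance windows, against 52.4% in all, and its part in these shares was not tested. These matches describe the letters in the window and say nothing of binding in these cells.

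For Sema7a, log2 signals were 8.10, 8.05 and 8.07 in MEFs labelled NeuroD2, against 6.42, 6.36 and 6.41 in their controls, a rise of 1.67 ± 0.12 log2 units (difference ± SE, 3.19-fold, adjusted p = 1.02e-09). MEFs with MyoD had 6.83, 7.10 and 7.08, against 6.26, 6.17 and 6.35 in their controls (0.74 ± 0.12, adjusted p = 3.91e-05). P19 cells with NeuroD2 had 6.84, 6.72 and 6.72, against 6.03, 6.33 and 6.58 in their controls (0.45 ± 0.12, adjusted p = 0.0181). In all 3 comparisons every transduced array lay above every control array, by the widest margin in MEFs labelled NeuroD2. The P19 call was lost without control replicate 1 of batch 3 (0.31, adjusted p = 0.115) and without NeuroD2 replicate 1 (0.40, adjusted p = 0.0713). The other Sema7a probe set was not called in any comparison.

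Its receptor Plxnc1 moved alongside. The gene had 8.63, 8.38 and 8.58 in MEFs labelled NeuroD2, against 6.71, 6.63 and 6.58 in their controls (1.89 ± 0.17, 3.7-fold, adjusted p = 4.17e-08). It had 7.96, 7.87 and 7.65 in MEFs with MyoD, against 6.74, 6.92 and 6.55 in their controls (1.09 ± 0.17, adjusted p = 3.13e-05), and 7.05, 7.54 and 7.85 in P19 cells with NeuroD2, against 6.50, 6.56 and 6.88 in their controls (0.83 ± 0.17, adjusted p = 0.00228). No transduced array reached down to a control array in these 3 comparisons. Fitted to their 6 arrays alone, the P19 cells missed the threshold (adjusted p = 0.065). The rise was larger in MEFs labelled NeuroD2 than in P19 cells with NeuroD2, by 1.06 ± 0.24 log2 units (adjusted p = 0.00437).

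Sema3g signals in all controls lay near the lower quartile of their arrays. MEFs with MyoD had 6.48, 6.15 and 5.86, against 4.44, 4.68 and 4.69 in their controls (1.56 ± 0.17, 2.95-fold, adjusted p = 3.94e-07). P19 cells with NeuroD2 had 5.70, 6.27 and 5.80, against 4.84, 4.73 and 4.51 in their controls (1.23 ± 0.17, adjusted p = 4.35e-05), and the rise in MEFs labelled NeuroD2 was 0.90 ± 0.17 (adjusted p = 0.000809). All transduced arrays again exceeded all controls.

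Efnb1 had 9.33, 9.02 and 8.99 in P19 cells with NeuroD2, against 8.27, 8.07 and 7.62 in their controls, a rise of 1.13 ± 0.14 (adjusted p = 1.08e-05). In MEFs with MyoD it had 8.30, 8.45 and 8.29, against 7.23, 7.39 and 7.48 in their controls (0.98 ± 0.14, adjusted p = 1.4e-05), and in MEFs labelled NeuroD2 8.20, 8.32 and 8.17, against 7.25, 7.33 and 7.62 in their controls (0.83 ± 0.14, adjusted p = 0.000237). The arrays of each pair of groups did not overlap. For P19 cells with MyoD the difference was 0.00 ± 0.14 (adjusted p = 0.991), and the effects in P19 cells, MyoD minus NeuroD2, differed by -1.12 ± 0.20 (adjusted p = 0.00106).

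Both neuropilins changed in several comparisons. Nrp2, a co-receptor for class 3 semaphorins and vascular growth factors, was called in all 4 comparisons. MEFs with MyoD had Nrp2 signals of 8.52, 8.35 and 8.41, against 11.73, 11.76 and 11.60 in their controls (-3.27 ± 0.19, 9.65-fold lower, adjusted p = 1.06e-11). MEFs labelled NeuroD2 had 10.05, 10.09 and 10.17, against 12.01, 11.92 and 12.01 in their controls (-1.88 ± 0.19, 3.67-fold lower, adjusted p = 1.87e-07). In both kinds of transduced MEF all arrays lay well below all control arrays.

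P19 cells went different ways with the 2 factors. With NeuroD2 they had Nrp2 signals of 8.09, 8.58 and 8.62, against 6.56, 7.42 and 7.40 in their controls, a rise of 1.31 ± 0.19 (2.47-fold, adjusted p = 4.63e-05). With MyoD they had 6.29, 6.52 and 6.22, against 7.32, 6.86 and 7.29 in their controls, a fall (-0.81 ± 0.19, adjusted p = 0.0187; without the outlying control -0.96, adjusted p = 0.00338). This fall held its call in 10 of 14 settings. The call was lost without MyoD replicate 1 (adjusted p = 0.084) or 3 (0.106) and with only the arrays compared (0.451). With the mean of all probe sets it was also lost (-0.41, adjusted p = 0.106). In neither pair did the arrays overlap, although control replicate 1 of batch 3 lay below the other 2. The effects on Nrp2 in P19 cells, MyoD minus NeuroD2, differed by -2.12 ± 0.26 (adjusted p = 1.58e-05).

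Nrp1, the main co-receptor for Sema3a, rose in P19 cells with NeuroD2 and in MEFs labelled NeuroD2. P19 cells with NeuroD2 had 7.77, 7.78 and 7.86, against 5.53, 5.66 and 5.90 in their controls (2.11 ± 0.15, 4.31-fold, adjusted p = 1.85e-09). MEFs labelled NeuroD2 had 10.70, 10.82 and 10.78, against 9.52, 9.37 and 9.57 in their controls (1.28 ± 0.15, adjusted p = 1.49e-06). With MyoD, MEFs had 8.12, 8.25 and 8.14, against 9.65, 9.60 and 9.38 in their controls, a fall (-1.37 ± 0.15, adjusted p = 2.15e-07). Nrp1 arrays separated completely in these 3 comparisons, and in P19 cells with MyoD the difference of -0.27 ± 0.15 did not pass the threshold (adjusted p = 0.193). Differences from controls under the MyoD and the NeuroD2 label were themselves apart, by -2.65 ± 0.21 in MEFs (adjusted p = 3.55e-09) and by -2.38 ± 0.21 in P19 cells (adjusted p = 1.12e-07), with that under MyoD the lower in each.

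**Figure D3:**
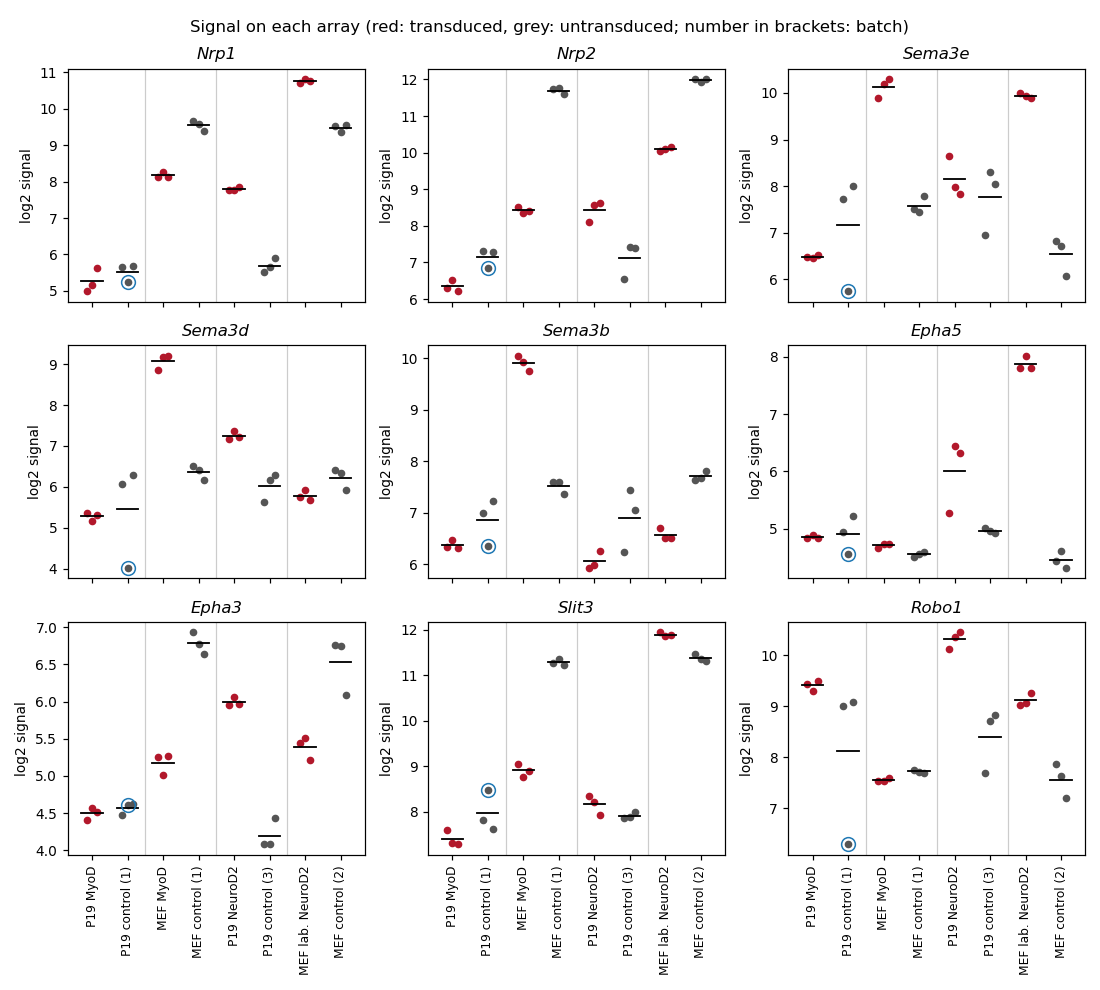
Log2 signal of every array for 9 guidance genes (Nrp1, Nrp2, Sema3e, Sema3d, Sema3b, Epha5, Epha3, Slit3 and Robo1), with transduced cells in red left of their untransduced controls in grey, a bar at each group mean, and a blue circle around P19 control replicate 2 of batch 1. Nrp2 lies lower in both kinds of transduced MEF and higher in P19 cells with NeuroD2, and Epha5 in MEFs labelled NeuroD2 (7.80 to 8.02) stands clear of their controls (4.32 to 4.61).

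Among the secreted class 3 semaphorins, Sema3e rose in both kinds of transduced MEF. Sema3e, which can bind Plxnd1 without a neuropilin, had 10.00, 9.94 and 9.89 in MEFs labelled NeuroD2, against 6.83, 6.72 and 6.07 in their controls (3.40 ± 0.41, 10.6-fold, adjusted p = 3.4e-06). It had 9.89, 10.20 and 10.30 in MEFs with MyoD, against 7.51, 7.44 and 7.79 in their controls (2.55 ± 0.41, 5.84-fold, adjusted p = 5.73e-05). Every transduced MEF array was well above every MEF control. The groups of P19 cells with NeuroD2 and their controls overlapped (difference 0.39 ± 0.41, adjusted p = 0.785). P19 cells with MyoD had 6.48, 6.45 and 6.52, against 7.72, 5.74 and 8.00 in their controls, where the outlying replicate 2 alone lay below the MyoD arrays (-0.67 ± 0.41, adjusted p = 0.24; without it -1.38, adjusted p = 0.0073). The Plxnd1 receptor itself was not called, with differences of 0.03 in MEFs with MyoD and -0.42 in MEFs labelled NeuroD2.

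Sema3d and Sema3b separated MEFs with MyoD from MEFs labelled NeuroD2. Sema3d had 8.86, 9.18 and 9.21 in MEFs with MyoD, against 6.51, 6.41 and 6.18 in their controls (2.72 ± 0.36, 6.58-fold, adjusted p = 4.62e-06). Sema3b had 10.05, 9.92 and 9.76 there, against 7.61, 7.60 and 7.37 in the controls (2.39 ± 0.22, 5.22-fold, adjusted p = 3.26e-08). Neither gene's groups overlapped. In MEFs labelled NeuroD2, Sema3b fell, with 6.71, 6.51 and 6.51, against 7.63, 7.68 and 7.80 in their controls (-1.13 ± 0.22, adjusted p = 0.0011), and Sema3d was 5.74, 5.93 and 5.67, against 6.41, 6.33 and 5.92 in their controls (-0.44 ± 0.36, adjusted p = 0.628). The Sema3b groups stayed apart, and those of Sema3d overlapped. Differences from controls, MEFs with MyoD minus MEFs labelled NeuroD2, were apart by 3.52 ± 0.32 for Sema3b (adjusted p = 3.28e-08) and by 3.15 ± 0.51 for Sema3d (adjusted p = 8.93e-05).

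Sema3d rose in P19 cells with NeuroD2, with 7.17, 7.35 and 7.22, against 5.64, 6.17 and 6.28 in their controls (1.22 ± 0.36, adjusted p = 0.0386). Sema3b had 5.93, 5.99 and 6.27, against 6.24, 7.43 and 7.05 in their controls, and was called lower (-0.85 ± 0.22, adjusted p = 0.0193). Its highest transduced array exceeded control replicate 1, so those groups overlapped, whereas the Sema3d groups did not. The Sema3d call held in 5 of 14 alternative settings. It was lost without any 1 of its own 6 arrays (adjusted p from 0.054 to 0.159) and with the replicate number as a block (adjusted p = 0.0646). The Sema3b call was lost without control replicate 2 (adjusted p = 0.143) or 3 (0.0805) and without NeuroD2 replicate 1 (0.0726) or 2 (0.079).

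Sema3a, the classical growth cone repellent, fell in MEFs labelled NeuroD2, with 7.82, 7.74 and 7.70, against 9.35, 9.57 and 9.36 in their controls (-1.68 ± 0.42, 3.2-fold lower, adjusted p = 0.00832). MEFs with MyoD had 9.44, 9.52 and 9.38, against 10.19, 10.04 and 9.75 in their controls, below every control array but not past the threshold (-0.55 ± 0.42, adjusted p = 0.449). P19 cells with NeuroD2 had 8.29, 7.36 and 7.76, against 6.28, 8.06 and 8.04 in their controls (adjusted p = 0.833). Control replicate 1 of batch 3 stood well below the other 2 for Sema3a, and the groups overlapped. Sema3c, another class 3 ligand, fell in MEFs with MyoD, with 10.40, 10.30 and 10.35, against 12.13, 12.06 and 11.98 in their controls (-1.71 ± 0.34, adjusted p = 0.000548). Sema3c was called in no other factor comparison, and the difference in MEFs labelled NeuroD2 was 0.13 ± 0.34.

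Sema3f, the preferred ligand of Nrp2, was not called through its brightest probe set in any factor comparison, with a difference of -0.19 ± 0.52 in MEFs with MyoD (adjusted p = 0.907). Its other 2 probe sets fell there, with differences of -1.20 (adjusted p = 0.000144) and -2.36 (adjusted p = 4.95e-08). The brightest set read 13.72 on P19 control replicate 2 of batch 1, against 10.53 and 10.42 on the other controls.

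Among membrane semaphorins, Sema6d rose under the NeuroD2 label in both kinds of cell. Sema6d had 9.73, 10.14 and 10.11 in P19 cells with NeuroD2, against 7.86, 8.70 and 8.69 in their controls (1.58 ± 0.36, 2.99-fold, adjusted p = 0.00596). It had 8.76, 8.93 and 8.79 in MEFs labelled NeuroD2, against 6.91, 7.14 and 6.65 in their controls (1.93 ± 0.36, 3.8-fold, adjusted p = 0.000572). Both pairs of groups were fully apart, and the 2 effects did not differ past the threshold (0.35 ± 0.51, adjusted p = 0.865). Sema5a, a transmembrane semaphorin with thrombospondin repeats, fell in MEFs with MyoD (-1.21 ± 0.29, adjusted p = 0.00339), and Sema4d, the ligand of B-type plexins, fell in MEFs with MyoD (-0.69) and in MEFs labelled NeuroD2 (-0.88). Sema4g was called lower in MEFs with MyoD (-0.37, adjusted p = 0.0496) and higher in P19 cells with NeuroD2 (0.81, adjusted p = 0.000259), and Sema6a rose in MEFs labelled NeuroD2 (0.55). The Sema4g call in MEFs held in 6 of 14 settings. Sema4d in MEFs with MyoD missed the threshold with the mean of its probe sets (adjusted p = 0.322), without MyoD replicate 1 (0.102) and without control replicate 1 (0.0694). In MEFs labelled NeuroD2 the Sema4d call was also lost with the mean of its probe sets (-0.37, limma adjusted p = 0.0769).

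Of the 8 plexins, the signalling receptors, 3 rose and 1 fell in MEFs with MyoD. Besides Plxnc1, Plxnb3 (0.99) and Plxna1 (0.76, adjusted p = 0.00229) rose there, and Plxnb2 fell (-0.82). Plxnb2 also fell in P19 cells with NeuroD2, with 9.80, 9.64 and 9.57, against 10.28, 10.41 and 10.49 in their controls (-0.72 ± 0.12, adjusted p = 0.000356), and those arrays did not overlap. Plxna3 rose in MEFs labelled NeuroD2 (0.65, adjusted p = 0.0273), a call that held in 9 of 15 settings.

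Eph receptors split by factor and cell. Epha5, an EphA receptor abundant in brain, had 7.80, 8.02 and 7.80 in MEFs labelled NeuroD2, against 4.43, 4.61 and 4.32 in their controls (3.42 ± 0.21, 10.7-fold, adjusted p = 1.07e-10). P19 cells with NeuroD2 had 5.27, 6.44 and 6.33, against 5.02, 4.96 and 4.92 in their controls (1.04 ± 0.21, adjusted p = 0.00186). Transduced arrays lay above controls in both, with replicate 1 of the P19 cells close to its controls, and the P19 call was lost when only those 6 arrays were fitted (adjusted p = 0.0825). With MyoD the differences were 0.16 in MEFs and -0.06 in P19 cells, neither past the threshold.

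Epha3 and Epha4 rose in P19 cells with NeuroD2 and fell in both kinds of transduced MEF. Epha3 had 5.96, 6.06 and 5.97 in P19 cells with NeuroD2, against 4.08, 4.08 and 4.43 in their controls (1.80 ± 0.15, 3.48-fold, adjusted p = 3.88e-08). It had 5.25, 5.01 and 5.26 in MEFs with MyoD, against 6.93, 6.77 and 6.65 in their controls (-1.61 ± 0.15, adjusted p = 3.72e-08), and 5.45, 5.51 and 5.21 in MEFs labelled NeuroD2, against 6.76, 6.74 and 6.08 in their controls (-1.14 ± 0.15, adjusted p = 1.18e-05). No pair of groups overlapped. Epha4, which binds ephrins of both classes, had 6.70, 6.38 and 6.48 in MEFs labelled NeuroD2, against 8.63, 8.71 and 8.59 in their controls (-2.13 ± 0.22, 4.37-fold lower, adjusted p = 3.29e-07). It fell likewise in MEFs with MyoD (-1.63 ± 0.22, adjusted p = 5.37e-06) and rose in P19 cells with NeuroD2 (1.02 ± 0.22, adjusted p = 0.00394). Those P19 cells had 9.38, 9.51 and 9.65, against 7.77, 8.84 and 8.88 in their controls, where replicate 1 lay well below the others. The Epha4 groups were apart each time, although with only their 6 arrays fitted the P19 cells missed the threshold (adjusted p = 0.0906).

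The effects under the NeuroD2 label, MEFs minus P19 cells, differed by -3.14 ± 0.31 for Epha4 (adjusted p = 3.02e-07) and by -2.94 ± 0.21 for Epha3 (adjusted p = 3.86e-09). Among all 67 genes, Nrp2 and Ntn1 shared this pattern of a rise in P19 cells with NeuroD2 and a fall in both MEF comparisons with all arrays, and without the outlying array Slit2 did too. The Ntn1 rise in P19 cells did not hold against the other batch's controls (-0.0766, adjusted p = 0.697).

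Ephb1, an EphB receptor, showed the largest of the 3 changes with MyoD in P19 cells, with 9.30, 9.25 and 9.51, against 8.07, 6.05 and 7.88 in their controls (2.02 ± 0.35, 4.07-fold, adjusted p = 0.00173). Every MyoD array was above every control, and the lowest control was the outlying replicate 2. Without it the difference was 1.38 (adjusted p = 0.000495). Ephb3 had 8.11, 8.12 and 7.81 in P19 cells with MyoD, against 7.59, 6.81 and 7.55 in their controls (0.70 ± 0.17, adjusted p = 0.0271), again with replicate 2 lowest. In MEFs labelled NeuroD2, Ephb3 fell (-1.02 ± 0.17, adjusted p = 0.000163). MEFs with MyoD showed falls in Ephb4 (-1.18), Epha7 (-1.10) and Ephb6, a receptor without kinase activity (-0.51). The Epha7 call was lost without any 1 of the 6 arrays (adjusted p from 0.0683 to 0.148) and with the replicate block (0.08), and that of Ephb6 without replicate 1 of either group (0.0685 and 0.0826). Epha2 passed the threshold in none of the 4 comparisons with all arrays, with -0.50 ± 0.26 in MEFs with MyoD.

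Among ephrins, Efnb2, a transmembrane ligand of EphB receptors and Epha4, rose in MEFs labelled NeuroD2 and was called in no other factor comparison. It had 10.72, 10.70 and 10.68 there, against 8.87, 8.88 and 8.51 in their controls (1.95 ± 0.19, 3.85-fold, adjusted p = 2.07e-07). The arrays were far apart, and the difference from controls was larger in MEFs labelled NeuroD2 than in P19 cells with NeuroD2 by 1.77 ± 0.27 (adjusted p = 9.94e-05). With MyoD in MEFs the groups overlapped (-0.25 ± 0.19, adjusted p = 0.449), and the differences from controls, MEFs with MyoD minus MEFs labelled NeuroD2, were apart by -2.20 ± 0.27 (adjusted p = 3.31e-06). Among the GPI-anchored A-type ephrins, calls with all arrays were downwards. In MEFs with MyoD, Efna4 (-1.36), Efna5 (-0.97 ± 0.17, adjusted p = 0.000149) and Efna1 (-0.64) fell. Efna4 also fell in MEFs labelled NeuroD2 (-0.43, adjusted p = 0.0288) and Efna1 in P19 cells with NeuroD2 (-0.43, adjusted p = 0.0111). Both of these small falls changed sign against the other batch's controls, Efna4 to 0.0948 (adjusted p = 0.799) and Efna1 to 0.0765 (adjusted p = 0.586). Efna2 was higher in P19 cells with NeuroD2 by 0.68 ± 0.22 (adjusted p = 0.062), and passed the threshold without the outlying array (adjusted p = 0.0056).

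Of the 3 slit ligands, Slit3 alone differed between MEFs with MyoD and MEFs labelled NeuroD2, each against its controls. Slit3 had 9.06, 8.77 and 8.91 in MEFs with MyoD, against 11.27, 11.35 and 11.23 in their controls (-2.37 ± 0.16, 5.17-fold lower, adjusted p = 2.31e-10). It had 11.94, 11.86 and 11.87 in MEFs labelled NeuroD2, against 11.46, 11.35 and 11.32 in their controls (0.51 ± 0.16, adjusted p = 0.0408). Neither pair overlapped, the fall with MyoD being far larger than the rise in the other. The rise held in 7 of 15 settings and was lost without any 1 of its 6 arrays (adjusted p from 0.0678 to 0.129) and with the replicate block (0.0839). Slit2 fell in both, with 10.20, 10.24 and 10.16 in MEFs with MyoD, against 11.61, 11.50 and 11.49 in their controls (-1.33 ± 0.26, adjusted p = 0.000474), and with 9.99, 9.94 and 10.01 in MEFs labelled NeuroD2, against 11.26, 11.26 and 11.16 in their controls (-1.25 ± 0.26, adjusted p = 0.00194). All transduced arrays lay below all controls. In P19 cells Slit2 differed by 0.46 ± 0.26 with NeuroD2 (adjusted p = 0.41; without the outlying array 0.0383, past the threshold, though the groups overlapped) and 0.39 ± 0.26 with MyoD (adjusted p = 0.276), and Slit1 and Slit3 were not called there either.

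The slit receptor Robo1 had 10.13, 10.37 and 10.45 in P19 cells with NeuroD2, against 7.69, 8.71 and 8.83 in their controls (1.91 ± 0.46, 3.75-fold, adjusted p = 0.0101). It had 9.02, 9.07 and 9.26 in MEFs labelled NeuroD2, against 7.87, 7.63 and 7.19 in their controls (1.55 ± 0.46, adjusted p = 0.0285). Neither pair of groups overlapped, but P19 control replicate 1 of batch 3 lay below the other 2, and without it the P19 difference was 1.55 (adjusted p = 0.0639). In MEFs labelled NeuroD2 the call was lost without any 1 of 5 arrays (adjusted p from 0.0672 to 0.127), all but control replicate 1. Robo2 rose in P19 cells with NeuroD2, from signals below the lower quartile of these arrays, with 3.92, 4.43 and 4.46, against 3.84, 3.83 and 3.64 in their controls (0.50 ± 0.12, adjusted p = 0.0117), a call that held in 10 of 14 settings. With MyoD, P19 cells had Robo1 signals of 9.44, 9.30 and 9.49, against 9.01, 6.29 and 9.08 in their controls, which did not overlap but missed the threshold (difference 1.28 ± 0.46, adjusted p = 0.124; without replicate 2, 0.36, adjusted p = 0.564).

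Netrin-1 (Ntn1), the founding chemoattractant of the family, had 9.35, 9.30 and 9.34 in MEFs with MyoD, against 11.42, 11.41 and 11.34 in their controls (-2.06 ± 0.14, 4.18-fold lower, adjusted p = 3.57e-10). It had 10.24, 10.24 and 10.06 in MEFs labelled NeuroD2, against 11.11, 11.02 and 11.01 in their controls (-0.86 ± 0.14, adjusted p = 0.000191), and 8.65, 8.64 and 8.45 in P19 cells with NeuroD2, against 7.91, 7.81 and 7.82 in their controls (0.73 ± 0.14, adjusted p = 0.00187). The direction was down in both kinds of MEF and up in P19 cells, with no overlap. Against the P19 controls of batch 1, which had 8.90, 8.13 and 8.93, the difference in P19 cells with NeuroD2 changed sign (-0.0766, adjusted p = 0.697). Ntn4, a netrin of basement membranes, rose in MEFs with MyoD (0.92 ± 0.33, adjusted p = 0.0481) and in MEFs labelled NeuroD2 (1.19 ± 0.33, adjusted p = 0.0194), calls that held in 4 and 9 of 14 settings.

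Of the netrin receptors, Unc5c had 7.85, 8.00 and 8.04 in MEFs with MyoD, against 6.15, 6.03 and 6.23 in their controls (1.83 ± 0.17, 3.54-fold, adjusted p = 2.46e-08). P19 cells with NeuroD2 had 6.75, 7.07 and 6.85, against 5.43, 5.68 and 5.58 in their controls (1.33 ± 0.17, 2.51-fold, adjusted p = 1.11e-05). MEFs labelled NeuroD2 had 6.89, 6.97 and 7.00, against 6.26, 6.11 and 5.44 in their controls (1.02 ± 0.17, adjusted p = 0.00016). Transduced arrays were higher without overlap in all 3. Unc5b fell in MEFs with MyoD (-0.71 ± 0.18, adjusted p = 0.0055). Dcc, the receptor for attraction, was not called in any comparison, with differences of 0.15 in P19 cells with NeuroD2, -0.19 in MEFs labelled NeuroD2 and 0.06 in MEFs with MyoD. In P19 cells with MyoD, Dcc had 7.06, 6.96 and 6.92, against 6.92, 8.87 and 6.93 in their controls, the high value being the outlying replicate 2 (adjusted p = 0.205).

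Whether the differences from controls under a factor's label were unlike in the 2 kinds of cell was tested as the difference between them. For MyoD, the effects in MEFs and P19 cells differed for 29 of the 67 genes (43.3%, against 21.1% of all genes). The effect was higher in MEFs for 9 of them (all genes, 6.39%) and lower for 20 (14.7%). As many, 29, differed without the outlying array (43.3%, against 30.6% of all genes), 10 higher (14.9%, against 13.7%) and 19 lower (28.4%, against 16.8%). Sema3e (3.22 ± 0.58, adjusted p = 0.000344) and Sema3c (-2.50 ± 0.48, adjusted p = 0.000624) lay at the ends of that range. The labels record the differentiation medium for MEFs with MyoD alone, and P19 cells with MyoD were harvested at another time. Kind of cell, medium and harvest time therefore cannot be told apart in these MyoD differences. Under the NeuroD2 label, the effects differed for 16 genes (23.9%, against 10.2% of all genes), and for 24 without the outlying array (35.8%, against 24.8%). With all arrays the effect was higher in MEFs for 7 (all genes, 4.53%) and lower for 9 (5.63%). The scatter of the effects under the NeuroD2 label in the 2 kinds of cell shows Nrp1, Sema6d, Robo1 and Unc5c raised in both, Epha3, Epha4, Nrp2 and Ntn1 in opposite quadrants, and Sema3e and Efnb2 raised in MEFs and not called in P19 cells.

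**Figure D4:**
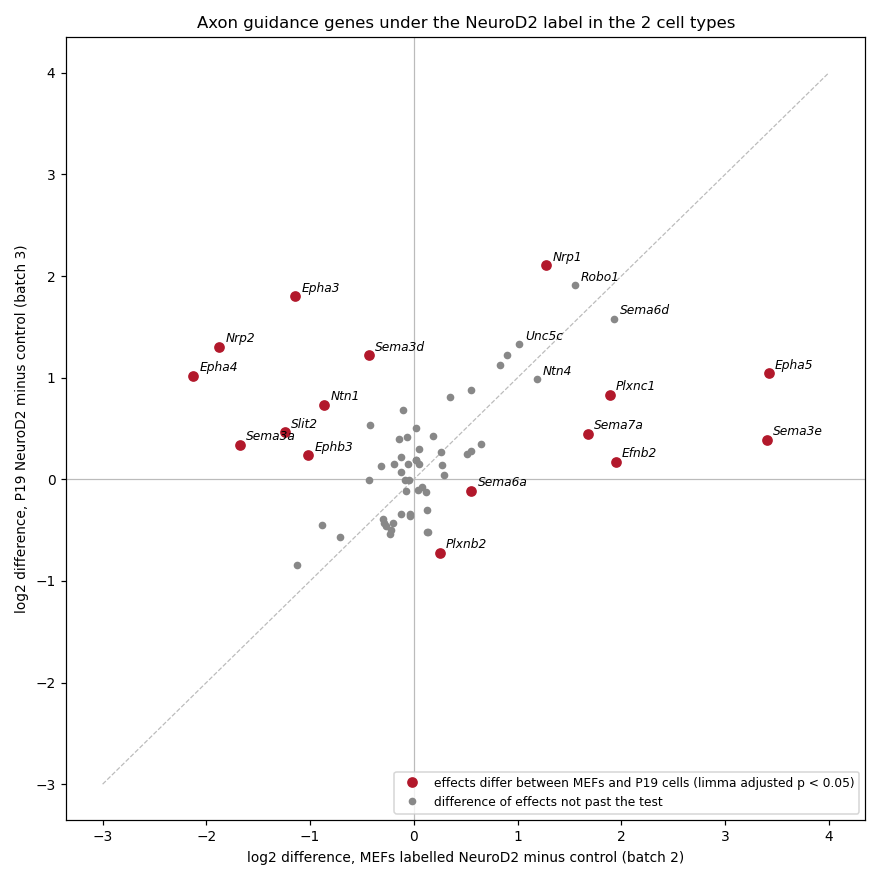
Difference in log2 signal from controls for each of the 67 guidance genes in MEFs labelled NeuroD2 (horizontal, batch 2) and in P19 cells with NeuroD2 (vertical, batch 3); red points differ between the cells at an adjusted p under 0.05 and the dashed line marks equal effects. The 16 red points run from Nrp2 (MEFs minus P19 cells, -3.18) to Sema3e (3.01).

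In P19 cells the effects of the 2 factors differed for 12 genes (17.9%, against 5.53% of all genes). The effect was higher with MyoD for 2 of them (all genes, 2.6%) and lower for 10 (2.93%). Without the outlying array, 21 differed (31.3%, against 11%), 4 higher (4.52%) and 17 lower (6.45%). Besides Nrp1, Nrp2 and Efnb1, these were led by Epha3 (-1.87 ± 0.21, adjusted p = 5.91e-06) and Sema3g (-1.37 ± 0.24, adjusted p = 0.00107), while Ephb1 was higher with MyoD (1.84 ± 0.50, adjusted p = 0.0321). The Ephb1 call held in 10 of 18 settings and was lost with only the arrays compared (adjusted p = 0.344). Between MEFs with MyoD and MEFs labelled NeuroD2, each against its controls, 23 genes differed (34.3%, against 18.8% of all genes), 5 of them higher with MyoD (all genes, 8.33%) and 18 lower (10.5%). The difference, MyoD minus the NeuroD2 label, was -3.26 ± 0.29 for Epha5 (adjusted p = 3.21e-08) and -2.88 ± 0.23 for Slit3 (adjusted p = 4.87e-09). The factors were run in different batches, each against its own controls, so batch and factor cannot be told apart in these differences. In MEFs the differentiation medium, recorded with MyoD alone, cannot be told apart from the factor either. Without the outlying array, 31 genes differed (46.3%, against 35.7%).

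Before any factor, the signals of many guidance genes differed between the 2 kinds of cell, as did those of many other genes. MEF controls and P19 controls of batch 1 differed in 43 of the 67 genes (64.2%, against 51.7% of all genes), with 18 higher in MEFs (26.9%, against 24.8%) and 25 lower (37.3%, against 26.9%). Without the outlying array the counts were 17 (25.4%, against 24.1%) and 27 (40.3%, against 31.4%), in all 65.7% against 55.4% of all genes. These comparisons use the same controls as those of MyoD above, so the lists were not set against each other.

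Nrp2 had 11.73, 11.76 and 11.60 in MEF controls, against 7.32, 6.86 and 7.29 in P19 controls (4.54 ± 0.19, 23.3-fold, adjusted p = 2.14e-14). Nrp1 had 9.65, 9.60 and 9.38 in MEF controls, against 5.65, 5.25 and 5.70 in P19 controls (4.01 ± 0.15, 16.1-fold, adjusted p = 3.25e-15). Both neuropilins were thus far apart in the 2 kinds of cell. Sema5a had 10.82, 10.83 and 10.50 in MEF controls, against 7.43, 5.60 and 7.21 in P19 controls (3.97 ± 0.29, 15.6-fold, adjusted p = 3.33e-10; without replicate 2, 3.39). Slit3 had 11.27, 11.35 and 11.23, against 7.82, 8.48 and 7.62 in P19 controls (3.31 ± 0.16, 9.91-fold, adjusted p = 4.17e-13). No MEF array overlapped a P19 array for these genes. Ntn1 (2.74), Slit2 (2.57), Sema3c (2.47), Ephb3 (2.43), Epha3 (2.21) and Sema3a (1.89) were also higher in MEFs.

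Lower in MEFs were several Eph receptors and membrane semaphorins. Ephb1 had 4.74, 4.95 and 4.82 in MEF controls, against 8.07, 6.05 and 7.88 in P19 controls (-2.50 ± 0.35, 5.65-fold lower, adjusted p = 4.19e-06; without replicate 2, -3.14). Epha7 had 6.40, 6.40 and 6.10, against 8.86, 6.63 and 9.11 in P19 controls (-1.90 ± 0.40, adjusted p = 0.000395; without replicate 2, -2.69). For both, replicate 2 of the P19 controls was the closest to the MEFs. Sema4a, a membrane semaphorin also known from immune cells, had 4.76, 4.64 and 4.86, against 6.25, 7.08 and 6.24 in P19 controls (-1.77 ± 0.23, adjusted p = 1.66e-06). Epha2, an EphA receptor of epithelial and early embryonic cells, had 7.31, 7.33 and 7.38, against 9.29, 8.48 and 9.37 in P19 controls (-1.71 ± 0.26, adjusted p = 1.06e-05). Neither overlapped. All 3 B-type ephrins were lower in MEFs, Efnb3 (-1.54), Efnb1 (-1.24) and Efnb2 (-0.72), as was Efna5 (-1.69, adjusted p = 4.07e-08). Calls on Sema3b, Sema3d, Sema3f, Sema6b, Sema6c, Plxna4 and Ntn3 were lost without the outlying array, and Sema3d and Sema3f each had another probe set called the opposite way (-1.24 and 0.84).

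**Figure D5:**
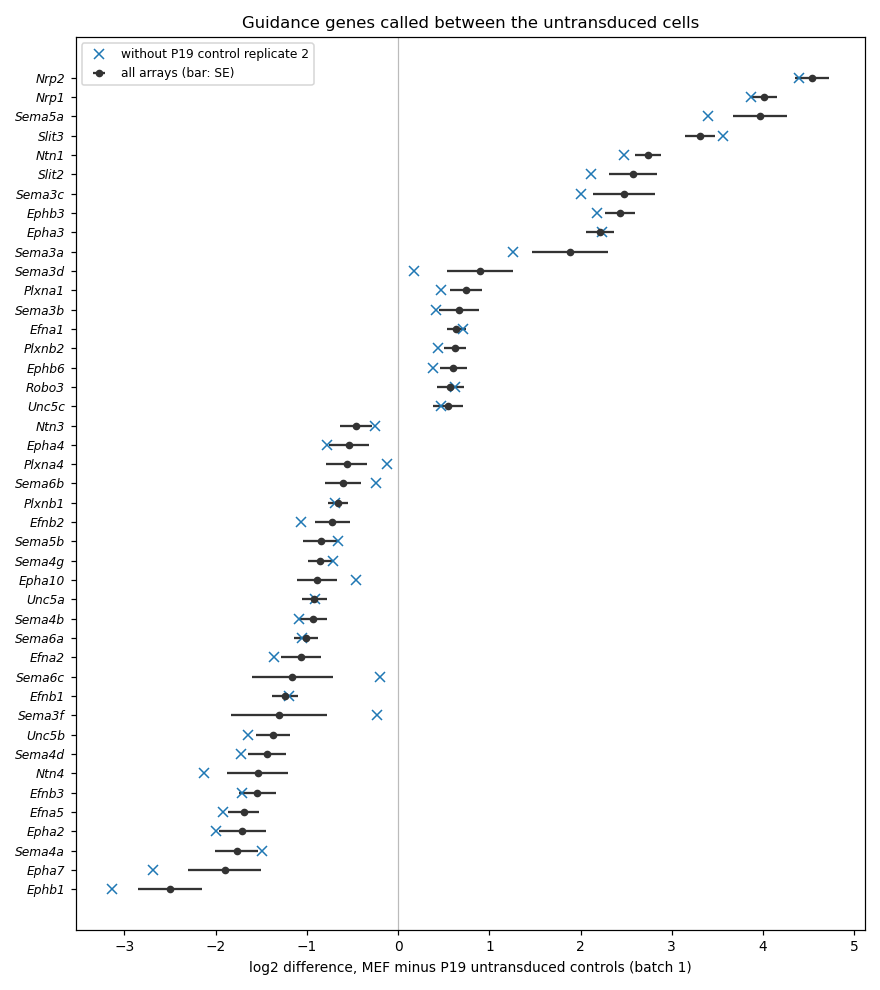
Difference in log2 signal, MEF controls minus P19 controls of batch 1, for the 43 guidance genes called at an adjusted p under 0.05; dots are differences with all arrays, bars ± 1 SE, and crosses the differences without P19 control replicate 2. Nrp2, Nrp1, Sema5a and Slit3 lie furthest to the right, and Ephb1 furthest to the left.

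The wider guidance machinery was read from 62 measured genes of a list of adhesion partners and of signalling proteins downstream of these receptors. With NeuroD2 in P19 cells, 21 of the 62 rose and 1 fell (33.9% and 1.61%, against 5.1% and 3.24% of all genes; median difference 0.27, against -0.05). The fit without the outlying array gave 29 that rose and 1 that fell (all genes, 10.9% and 11.2%). Largest were Dpysl3 (2.88 ± 0.35, adjusted p = 5.96e-06) and Dpysl4 (2.27 ± 0.16, adjusted p = 2.67e-09), cytosolic mediators of semaphorin signalling, Gap43, a growth cone protein (2.62 ± 0.50, adjusted p = 0.00133), and Cdk5r1, the activator of the kinase Cdk5 (2.04 ± 0.19, adjusted p = 1.75e-07). In MEFs labelled NeuroD2, 14 rose and 10 fell (22.6% and 16.1%, against 6.41% and 5.94% of all genes), with a median difference of 0.17, against -0.02. Without the outlying array 25 rose and 12 fell, where the shares of all genes were also larger (13.8% and 13.3%). The rises were led by Draxin, a secreted netrin antagonist (3.81 ± 0.14, adjusted p = 5.53e-14), Flrt1 (3.53 ± 0.16, adjusted p = 7.01e-13) and Flrt3 (3.21 ± 0.31, adjusted p = 1.14e-07), membrane ligands of Unc5 receptors, and Cntn2, an axonal adhesion protein (2.66 ± 0.17, adjusted p = 3.24e-10).

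In MEFs with MyoD, 15 of the 62 rose and 16 fell (24.2% and 25.8%, against 10.8% and 14.5% of all genes; median 0.00, against 0.00). In the fit without the outlying array 18 rose and 20 fell (all genes, 18.1% and 22.5%). The actin-binding Ablim3 (4.48 ± 0.13, adjusted p = 1.18e-16), Cdk5r1 (2.85 ± 0.19, adjusted p = 1.67e-10) and the Rac-inactivating protein Chn1 (2.78 ± 0.19, adjusted p = 2.34e-10) rose, and Dpysl3 fell (-4.03 ± 0.35, adjusted p = 9.37e-09). In P19 cells with MyoD, 7 rose and 1 fell (11.3% and 1.61%, against 2.03% and 0.676% of all genes; median 0.15, against 0.04), among the rises Cdk5r1 (2.14 ± 0.19, adjusted p = 3.2e-07), the kinase Pak3 (1.85 ± 0.23, adjusted p = 4.1e-05), the neogenin ligand Rgmb (1.09 ± 0.17, adjusted p = 0.000495) and the Rac activator Tiam1 (1.07 ± 0.22, adjusted p = 0.00843). Between MEF and P19 controls, 23 were higher and 24 lower in MEFs (37.1% and 38.7%, against 24.8% and 26.9% of all genes), with Flrt2 (5.09 ± 0.46) and Dpysl3 (3.86 ± 0.35) the highest and the adhesion molecule Nrcam (-5.60 ± 0.27) and Dpysl5 (-3.07 ± 0.18) the lowest.

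Other probe sets of the called genes were read as a check. In MEFs with MyoD, 31 of 46 other probe sets were called the same way, 0 the opposite way and 15 were not called. In P19 cells with NeuroD2 the numbers were 15 of 35 the same way, 0 opposite and 20 not called, and in MEFs labelled NeuroD2 35 of 49, 0 and 14. For P19 cells with MyoD, the 3 other probe sets of Nrp2 were not called. Ephb1, Ephb3, Slit3, Robo2 and Sema3g were each read by a single probe set.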

How the data were processed

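The authors deposited 1 table of normalized log2 signals, 45101 probe sets by 24 arrays, which was used as deposited. Per the labels' protocols, RNA was labelled with biotin by Affymetrix's One-Cycle procedure. The submitters' processing notes name limma, and the normalization method is not known here. Of the probe sets, 64 Affymetrix controls, 9160 without a symbol and 932 with several were left out, and the brightest of the rest stood for each of 18193 genes.

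Groups came from the sample titles. All 24 arrays entered 1 limma model (version 3.58.1, R 4.3.3) with a mean per group, 16 residual and 3.89 prior degrees of freedom, and each contrast was tested two-sided against controls of the same batch. P-values were adjusted by Benjamini and Hochberg over all 18193 genes and called under 0.05. Every member may be named, and up to 6 called members per factor comparison with the largest differences and separate groups (4 each way between MEFs and P19 cells) are described in full, together with a fixed set that includes Dcc, Nrp1, Nrp2, Sema3a, Sema3f, Slit2, Robo1, Efnb1 and Efnb2. The members, gene lists and this rule were chosen with earlier results of these data known, and some genes of these families are not reported here. Replicate numbers recur across groups, but deviations of same-numbered arrays correlated between -0.19 and 0.34, so they were not taken to pair samples. Alternatives covered normalization, dim genes, probe sets, the arrays fitted, a replicate block, each array left out and the other batch's controls. Tests were checked on simulated data with independent normal noise. The simulation held no outlying array, so it does not cover the effect of such an array on the calls. Promoters are from RefSeq. With 3 arrays a group, the number of arrays limits the precision.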

Additional observations from a re-analysis of the deposited data

Results flagged for a closer look

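For the guidance genes below, the effect of a factor differed between MEFs and P19 cells in a test of the difference itself (limma, adjusted p under 0.05 over 18193 genes, each value the log2 effect in MEFs minus that in P19 cells). For MyoD, 29 genes differed, with adjusted p from 2.47e-08 to 0.0423. Among semaphorins the difference was 3.22 for Sema3e, 2.90 for Sema3d, 2.87 for Sema3b, 1.70 for Sema3g, 0.65 for Sema7a, -0.95 for Sema4d, -1.94 for Sema5a and -2.50 for Sema3c. Among their receptors it was -2.46 for Nrp2, -1.10 for Nrp1, -0.83 for Plxnb2, 1.11 for Plxnc1 and 1.16 for Plxnb3. For Eph receptors the effect, not the signal, was lower in MEFs, at -2.03 for Epha4, -1.90 for Epha7, -1.88 for Ephb1, -1.54 for Epha3, -1.40 for Ephb4, -0.76 for Ephb3 and -0.63 for Ephb6. The ephrins gave -1.35 for Efna4, -1.19 for Efna5, -1.06 for Efna2, -0.67 for Efna1 and 0.98 for Efnb1. The effect was also lower in MEFs for Slit3 (-1.81), Slit2 (-1.72) and Ntn1 (-2.35), and higher for Unc5c (1.54). Without P19 control replicate 2 of batch 1, Ephb6 missed the threshold (adjusted p = 0.0544). The Ephb6 call held in 6 of 18 alternative settings, and those of Ephb3 and Sema4d each held in 13 of 19. The differentiation medium is recorded for MEFs with MyoD alone and harvest times differed. Kind of cell, medium and harvest time therefore cannot be told apart here.

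Under the NeuroD2 label, 16 genes differed, with adjusted p from 3.86e-09 to 0.0414. The difference from controls, not the signal itself, is compared here. It was higher in MEFs than in P19 cells for Sema3e (3.01), Epha5 (2.37), Efnb2 (1.77), Sema7a (1.23), Plxnc1 (1.06), Plxnb2 (0.98) and Sema6a (0.67). It was lower in MEFs for Nrp2 (-3.18), Epha4 (-3.14), Epha3 (-2.94), Sema3a (-2.02), Slit2 (-1.71), Sema3d (-1.66), Ntn1 (-1.60), Ephb3 (-1.25) and Nrp1 (-0.83). The call held in 6 of 19 alternative settings for Sema3d, in 10 of 20 for Sema3a and in 13 of 20 for Sema6a. With the mean of all probe sets Nrp1 missed the threshold (-0.32, adjusted p = 0.233). These effects come from batches 2 and 3, so batch and kind of cell cannot be told apart.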

How the results depend on the processing

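Counts of called guidance genes moved with several settings, and the cause was not tested except where the number of genes or arrays changed by construction. The share of all genes called was counted only with all arrays and without the outlying array, not in the other settings. Leaving out dim genes, which drops members from the test, gave 1 higher with MyoD in P19 cells, 6 higher with MyoD in MEFs, 8 higher with NeuroD2 in P19 cells, 16 lower in MEF than in P19 controls, and 6 differing between MyoD and NeuroD2 effects in P19 cells. Fitting only the arrays compared gave 0 higher and 0 lower with MyoD in P19 cells (Ephb1, adjusted p = 0.573), 17 higher with MyoD in MEFs, 11 higher and 15 lower in MEF than in P19 controls, and 7 and 37 genes differing between the factors in P19 cells and in MEFs. Quantile normalization applied again gave 3 lower with MyoD and 6 lower with NeuroD2 in P19 cells. Controls of the other batch gave 5 higher and 13 lower with MyoD in P19 cells. The sign turned, with those controls, for Efna1 (0.0765) and Ntn1 (-0.0766) with NeuroD2 in P19 cells and Efna4 (0.0948) in MEFs labelled NeuroD2, and, with the mean of all probe sets, for Sema4d (0.00357) in the difference of MyoD effects between MEFs and P19 cells.

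Leaving out 1 array at a time gave 1 to 12 higher and 0 to 12 lower with MyoD in P19 cells, 10 to 12 and 15 to 19 with MyoD in MEFs, 13 to 25 and 2 to 12 with NeuroD2 in P19 cells, 10 to 20 and 9 to 13 in MEFs labelled NeuroD2, and 16 to 18 and 20 to 29 in MEF against P19 controls. The differences of effects gave 26 to 36 (MyoD, MEFs against P19 cells), 13 to 24 (NeuroD2), 8 to 21 (between factors, P19 cells) and 18 to 31 (MEFs). With MyoD in P19 cells, 11 were higher without control replicate 1, 1 without replicate 2 and 12 without replicate 3, with 12, 4 and 12 lower, and 1 was higher without MyoD replicate 1 or 2. Without P19 control replicate 1 of batch 3, 5 were lower with NeuroD2 in P19 cells. Called members that kept the call in every setting numbered 0 of 3 with MyoD in P19 cells, 24 of 30 with MyoD in MEFs, 9 of 19 with NeuroD2 in P19 cells and 18 of 25 in MEFs labelled NeuroD2.

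With the replicate number as a block, the counts were 2 higher and 1 lower with MyoD in P19 cells, 11 and 18 with MyoD in MEFs, 15 and 3 with NeuroD2 in P19 cells, 14 and 10 in MEFs labelled NeuroD2, and 17 and 24 in MEF against P19 controls, and the differences of effects gave 27, 14, 11 and 23. Every array correlated best with its own number only with NeuroD2 in P19 cells (3 of 3), a hint from the data and not from the design.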
